A study of Mus musculus with 6 samples.

Results

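The Ikaros family factors Ikzf1, Ikzf2, Ikzf3, Ikzf4 and Ikzf5 were followed in group 2 innate lymphoid cells (ILC2s) from mouse lung, sorted by whether they produced IL-10. The family was chosen by gene symbol, and all 5 members had a row among the 21017 genes of the count table. Both groups came from C57BL/6J mice of genotype IL-10GFP, a green fluorescent reporter of IL-10, aged 8 weeks and given 3 intranasal doses of 0.5 µg recombinant mouse IL-33. Sorted ILC2s were cultured for 48 h in IL-2, IL-7 plus IL-4 (10 ng/mL of each cytokine), and a second sort then gave the IL-10-producing and the IL-10-negative population, with 3 RNA libraries each. The labels also call the cells freshly sorted. Whether libraries of a group stem from different mice or different cultures is not said, so each p-value refers to the spread among libraries alone, and this spread may be technical.

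The Ikaros family is a group of zinc-finger transcription factors that shape lymphocyte development. Fingers near the start of the protein bind DNA, and a pair near its end lets family members join into homodimers and heterodimers. The factors recruit the NuRD (nucleosome remodelling and deacetylase) complex and other corepressors, and can also support transcription. Ikzf1 encodes Ikaros, Ikzf2 Helios, Ikzf3 Aiolos, Ikzf4 Eos and Ikzf5 Pegasus. In T cells, Ikaros and Aiolos have been linked to Il10 transcription, and Helios and Eos are known from regulatory T cells. Splicing of Ikaros family transcripts gives isoforms with fewer DNA-binding fingers, which values per gene do not separate.

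Because the 5 genes are paralogs, their reference transcripts were compared for stretches that could make reads ambiguous. A window of 60 coding bases around the longest run that Ikzf1 and Ikzf3 share is printed here, since these are the 2 abundant members. It lies in the part that encodes the dimerization fingers. Sequences are 5′ to 3′ along the gene, from GENCODE M21 on GRCm38 (mm10), and capitals mark bases that differ from Ikzf1 in the best ungapped match.
Ikzf1: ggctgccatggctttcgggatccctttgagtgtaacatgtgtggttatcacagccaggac
Ikzf2: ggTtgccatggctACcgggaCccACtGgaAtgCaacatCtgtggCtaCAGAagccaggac
Ikzf3: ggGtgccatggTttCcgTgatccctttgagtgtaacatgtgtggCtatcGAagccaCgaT
Ikzf4: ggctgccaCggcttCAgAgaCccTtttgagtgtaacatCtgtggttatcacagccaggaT
Ikzf5: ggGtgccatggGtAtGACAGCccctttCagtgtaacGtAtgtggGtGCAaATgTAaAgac
The windows lie at chr11:11769465-11769524 (plus strand, exon 9 of 9) for Ikzf1 and chr1:69538819-69538878 (minus strand, exon 8 of 8) for Ikzf2. They lie at chr11:98467043-98467102 (minus strand, exon 8 of 8) for Ikzf3, chr10:128634099-128634158 (minus strand, exon 8 of 9) for Ikzf4 and chr7:131391688-131391747 (minus strand, exon 4 of 4) for Ikzf5. Of the 60 bases, Ikzf4 shared 52 with Ikzf1, Ikzf3 51, Ikzf2 45 and Ikzf5 39. The longest identical run between Ikzf1 and Ikzf3 was 26 bases. Over all pairs of members the longest was 32 bases, between Ikzf2 and Ikzf4 and outside the coding sequence. No 50-base stretch was shared by protein-coding transcripts of any pair. Read length is not given in the sources used here.

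The IL-10-producing libraries held 47012941 to 69511433 counts and the IL-10-negative libraries 51218587 to 57989729. Il10 stood at 848 ± 7.78 counts per 1000000 library counts (CPM) in the IL-10-producing and 13.5 ± 0.608 CPM in the IL-10-negative libraries (SD, n = 3), which checks the labels, since the cells were sorted on its reporter. Of 15 ILC2 markers 5 rose and 7 fell, where 17.1% of all genes tested rose and 18.6% fell. The highest 2 of these markers were Il2ra, which rose (5835 ± 47.4 against 4206 ± 38.7 CPM), and Il1rl1, the IL-33 receptor, which fell (3299 against 4069 CPM). Summed T-cell markers ran from 126 to 129 CPM in the IL-10-producing and from 212 to 219 CPM in the IL-10-negative libraries, with 14 of 15 markers lower and Lef1 higher. Summed mast cell and basophil markers ran from 12.8 to 14.9 against 73.4 to 77.8 CPM (10 of 10 lower), and neutrophil markers from 1.31 to 1.80 against 34.4 to 37.9 CPM (3 of 3 tested lower). Other summed markers were higher in the IL-10-producing libraries. Those of regulatory T cells, mostly Il2ra, ran from 5931 to 6019 against 4298 to 4377 CPM (2 rose and 3 fell among 6). Those of NK cells and ILC1 ran from 77.3 to 89.0 against 25.5 to 26.1 CPM (2 rose and 4 fell among 6). Those of B and plasma cells ran from 52.8 to 54.7 against 42.1 to 43.1 CPM (3 rose and 4 fell among 9). In the IL-10-producing libraries the sum for NK cells and ILC1 was mostly Gzma, at 75.95 against 10.29 CPM. Of the markers of ILC3 2 of 2 fell, of macrophages and dendritic cells 1 rose and 4 fell among 8, and of epithelial, endothelial and stromal cells 1 rose and 1 fell among 3. The part of other cell types in the results for the Ikaros family was not tested.

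Aiolos and Ikaros transcripts were the most abundant of the family in both populations. Levels of different genes were compared as TMM-scaled CPM per kilobase of the longest annotated transcript (CPM per kb). Ikzf3, encoding Aiolos, stood highest, at 210 ± 2.60 CPM per kb in IL-10-producing and 208 ± 1.58 in IL-10-negative libraries (SD, n = 3). Ikzf1, encoding Ikaros, followed at 77.3 ± 1.02 and 76.1 ± 0.416 CPM per kb. Only 289 of 16642 tested genes with an annotated length had a higher mean CPM per kb than Ikzf3, and 933 had a higher one than Ikzf1.

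The other 3 members stood far below these. Ikzf5 was at 9.64 ± 0.814 and 10.1 ± 0.175 CPM per kb, Ikzf4 at 8.18 ± 0.231 and 9.53 ± 0.196, and Ikzf2 at 4.66 ± 0.0815 and 5.78 ± 0.195, each with the IL-10-producing value first. Over the 6 libraries the ranges of Ikzf5 (8.80 to 10.4) and Ikzf4 (7.94 to 9.69) overlapped, although Ikzf5 was above Ikzf4 within each library. The order of Ikzf4 and Ikzf5 depended on the length used. Per kilobase of the union of exons, mean Ikzf4 was above mean Ikzf5 in the IL-10-negative libraries (8.18 ± 0.168 against 7.82 ± 0.135). In the IL-10-producing libraries the mean of Ikzf4 was below that of Ikzf5 (7.03 ± 0.198 against 7.47 ± 0.631). IL-10-producing library 1 had the opposite order to these means (7.06 against 6.82). Ikzf2 was lowest under each of the 3 lengths used.

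Aiolos transcripts thus made up most of the summed family level. The share of Ikzf3 ran from 67.0% to 68.2% over the 6 libraries, that of Ikzf1 from 24.5% to 25.4%, and the other members together made up the rest. The longest transcript of Ikzf3 is annotated as a retained intron. With protein-coding transcripts alone the mean share of Ikzf3 was 72.3%. By the union of exons its share was lower, from 55.0% to 56.3% over the 6 libraries, and that of Ikzf1 higher, from 34.3% to 35.4%. The summed family level was 309 ± 2.40 CPM per kb in the IL-10-producing and 309 ± 2.01 in the IL-10-negative libraries. In bulk libraries, fewer cells with a transcript and less of it per cell cannot be told apart.

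Between the populations, the 2 abundant members were close to level and 2 of the 3 scarce members were lower in IL-10-producing cells. By edgeR's quasi-likelihood test with Benjamini-Hochberg adjustment over 16654 genes, Ikzf2 and Ikzf4 fell, and Ikzf1, Ikzf3 and Ikzf5 did not pass the threshold of 0.05. That is 2 of 5 members (40%), beside 35.7% of all genes tested, so the share is near the background. By direction, 0 members rose and 2 fell, beside 17.1% of all genes that rose and 18.6% that fell; at an unadjusted p under 0.05 the members' counts were the same. All 5 members passed the filter on low counts, with 1911 or more counts in every library.

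**Figure D1:**
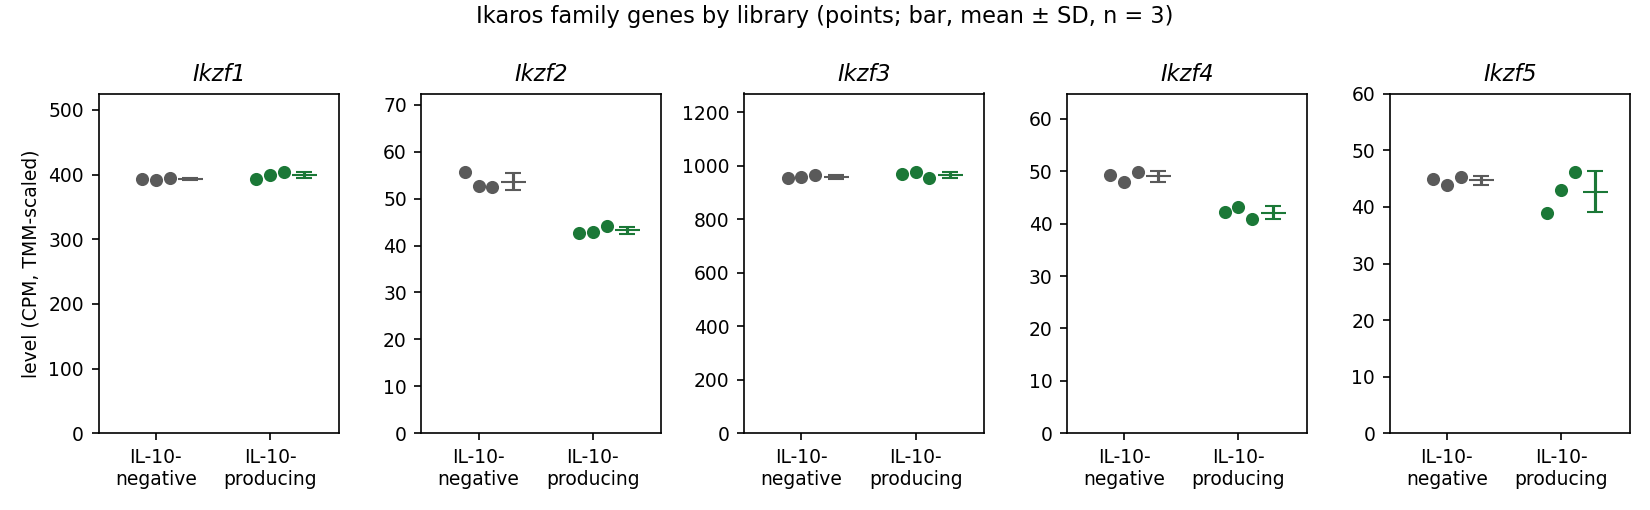
Level of each Ikaros family gene in TMM-scaled CPM (vertical axis, from 0, a separate scale per gene) in the 3 IL-10-negative and 3 IL-10-producing libraries (points), with mean ± SD beside them. For Ikzf2 and Ikzf4 every IL-10-producing library lies below every IL-10-negative library, whereas the groups of Ikzf1, Ikzf3 and Ikzf5 overlap.

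Ikzf2 encodes Helios, a factor found in regulatory T cells and other activated lymphocytes, and lies on the minus strand of chromosome 1 (69531214 to 69687245, ENSMUSG00000025997.13). Its level was 42.8, 42.9 and 44.1 CPM in IL-10-producing libraries 1 to 3 and 55.7, 52.8 and 52.4 CPM in IL-10-negative libraries 1 to 3. The groups did not overlap, which was the case for 45.2% of all genes tested. Ikzf2 fell by 0.31 on the log2 scale (SE 0.0366, adjusted p = 1.84e-07 by edgeR), to 0.807 of the IL-10-negative level with a 95% interval of 0.766 to 0.850. This absolute change was larger than that of 75.9% of the genes tested. Against a change of at least 1.2-fold (edgeR's glmTreat, passed by 7.91% of genes) it did not pass, with an adjusted p of 0.292.

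Ikzf4 encodes Eos, known as a corepressor partner of Foxp3, and lies on the minus strand of chromosome 10 (128630843 to 128645991, ENSMUSG00000002578.17). It stood at 42.3, 43.2 and 40.9 CPM in the IL-10-producing and at 49.4, 47.9 and 49.9 CPM in the IL-10-negative libraries. Here too every IL-10-producing library was below every IL-10-negative library. Ikzf4 fell by 0.22 on the log2 scale (SE 0.037, adjusted p = 3.81e-05 by edgeR), to 0.860 of the IL-10-negative level (95% interval 0.816 to 0.907), and did not pass the test against 1.2-fold (adjusted p = 1).

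Both genes were covered by 1911 to 3094 counts per library, for which counting alone gives a coefficient of variation of 1.80% to 2.29%. The coefficient seen for Ikzf2 was 1.75% in the IL-10-producing and 3.37% in the IL-10-negative libraries. For Ikzf4 it was 2.82% and 2.06%. Mean levels went from 53.6 ± 1.81 to 43.3 ± 0.756 CPM for Ikzf2 and from 49.1 ± 1.01 to 42.1 ± 1.19 CPM for Ikzf4 (SD, n = 3). In the same libraries Foxp3, which defines regulatory T cells, fell from 6.90 ± 0.514 to 1.82 ± 0.213 CPM, as did Nrp1 and Lrrc32 of the same marker list, by 0.94 and 1.33 on the log2 scale. Ctla4 and Il2ra of that list rose, by 0.80 and 0.47, and Tnfrsf9 did not pass (0.07, edgeR adjusted p = 0.0672). The T-cell markers Cd3e and Cd8a were at 1.25 and 0.0594 CPM in IL-10-producing against 8.19 and 15.3 CPM in IL-10-negative libraries. Of the 15 T-cell markers 14 were lower, the most abundant, Trbc2, by less (48.2 against 58.4 CPM). Lef1 was higher (41.5 against 33.1 CPM). Cd3e, Cd8a, Nrp1, Lrrc32 and Ctla4 were named after their values had been seen. Exons of Ikzf2 and Ikzf4 overlap opposite-strand noncoding genes over 144 and 37 bases only, with mean counts of 6.68 for Gm29114 and 16.2 for Gm26876 over the 6 libraries.

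Ikzf3 encodes Aiolos and lies on the minus strand of chromosome 11 (98464902 to 98546031, ENSMUSG00000018168.8). Its level was 967, 976 and 953 CPM in the IL-10-producing and 952, 956 and 966 CPM in the IL-10-negative libraries. The groups overlapped, and the log2 fold change was 0.01 (SE 0.0168, adjusted p = 0.648 by edgeR). The 95% interval of the ratio ran from 0.984 to 1.03. Once GC content and length were corrected for, Ikzf3 passed the threshold, at 0.04 (adjusted p = 0.0448), and with scaling by library size only its sign turned, to -0.02.

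Ikzf1 encodes Ikaros and lies on the plus strand of the same chromosome (11685003 to 11772926, ENSMUSG00000018654.17). It stood at 394, 400 and 404 CPM in the IL-10-producing and at 394, 391 and 395 CPM in the IL-10-negative libraries. The lowest IL-10-producing library lay within the IL-10-negative range. The log2 fold change of 0.02 (SE 0.0188, adjusted p = 0.403 by edgeR) did not pass, with a ratio interval of 0.988 to 1.04. As for Ikzf3, the GC and length correction brought it past the threshold, at 0.045 on the log2 scale (adjusted p = 0.047), and library size only turned its sign (-0.008).

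Ikzf5 encodes Pegasus, the most divergent member, and lies on the minus strand of chromosome 7 (131388652 to 131410521, ENSMUSG00000040167.16). Its level was 39.0, 43.0 and 46.2 CPM in the IL-10-producing and 44.9, 43.9 and 45.4 CPM in the IL-10-negative libraries. The IL-10-producing libraries enclosed the IL-10-negative ones and were the most variable of any member, with a coefficient of variation of 8.44% against 1.24% to 2.82% for the other members in that group. The log2 fold change was -0.07 (SE 0.046, adjusted p = 0.282 by edgeR; ratio interval 0.894 to 1.02). Single libraries decided this value: it was -0.12 (adjusted p = 0.0441) without IL-10-producing library 3 and -0.005 (adjusted p = 0.955) without IL-10-producing library 1. Ikzf5 is also the member whose counts are least certain, because 81.3% of its annotated exon bases (4652 of 5721) overlap exons of Pstk on the opposite strand, and the sources used here do not give whether reads were assigned by strand. Pstk, a kinase of selenocysteine synthesis, was at 12.5 ± 0.451 against 13.4 ± 1.81 CPM (adjusted p = 0.326).

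**Figure D2:**
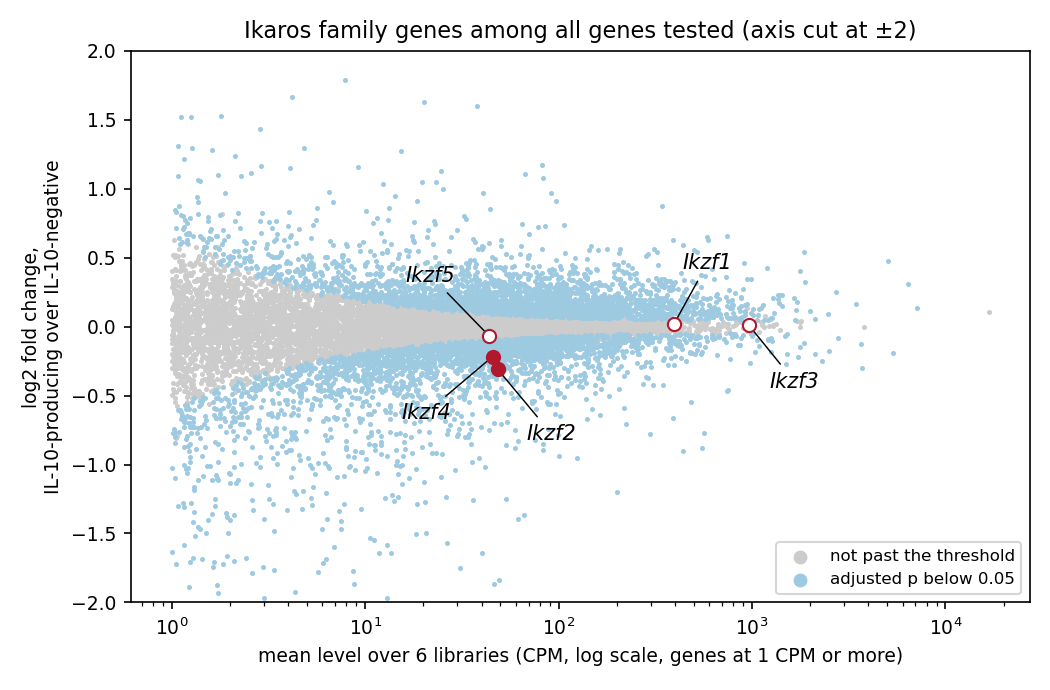
Log2 fold change (vertical axis, IL-10-producing over IL-10-negative) against mean level in CPM (horizontal axis, log scale) for tested genes at 1 CPM or more, with the 5 Ikaros family genes circled in red and filled where the adjusted p was below 0.05. Ikzf1 and Ikzf3 sit on the zero line among abundant genes, and Ikzf2 and Ikzf4 sit below it near 50 CPM.

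Relative to Ikzf1 in the same library, a ratio that no library scaling can move, the members fell into the same pattern. Transcript length cancels when a ratio is compared between libraries. Ikzf2 counts were 10.8% ± 0.0955 of Ikzf1 counts in the IL-10-producing and 13.6% ± 0.457 in the IL-10-negative libraries (SD, n = 3), with no overlap. Ikzf4 was at 10.6% ± 0.385 and 12.5% ± 0.189, again without overlap. The ratio of Ikzf3 to Ikzf1 was 242% ± 5.35 and 244% ± 1.59, and that of Ikzf5 10.7% ± 0.764 and 11.4% ± 0.135, and both overlapped. Ikzf2 relative to Ikzf4 ran from 99.3% to 108% in the IL-10-producing and from 105% to 113% in the IL-10-negative libraries, which also overlapped.

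**Figure D3:**
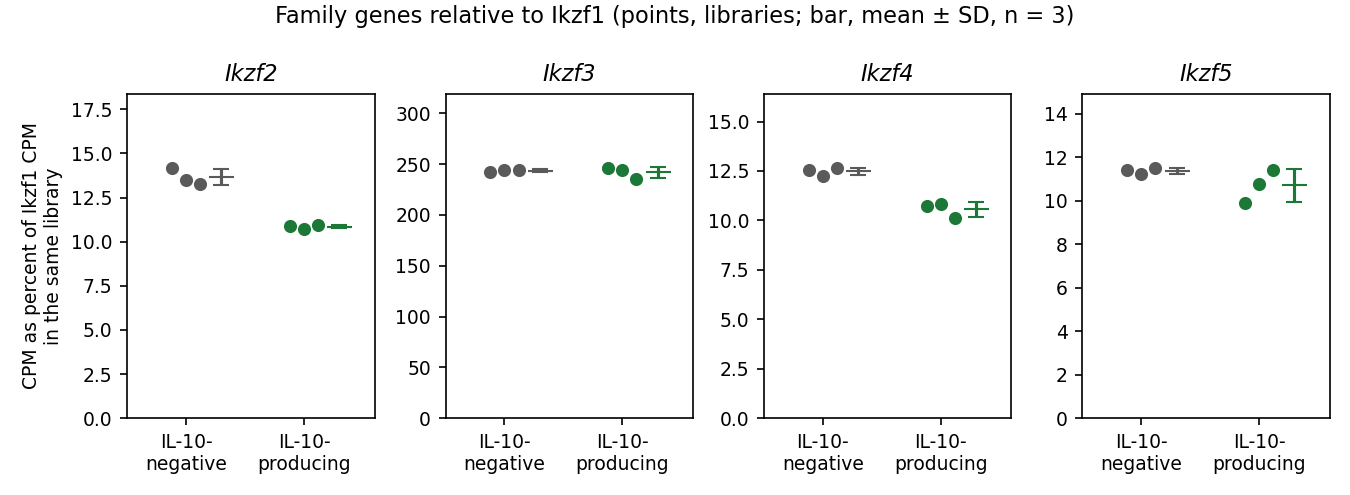
Level of Ikzf2, Ikzf3, Ikzf4 and Ikzf5 as a percentage of Ikzf1 in the same library (vertical axis, from 0) for the 3 IL-10-negative and 3 IL-10-producing libraries (points), with mean ± SD. Ikzf2 and Ikzf4 are lower relative to Ikzf1 in each IL-10-producing library, and the ratio of Ikzf3 to Ikzf1 stays between 236% and 246%.

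The sizes of the falls in Ikzf2 and Ikzf4 varied little with the analysis. Over 15 alternatives other than the 1.2-fold test, Ikzf2 stayed between -0.34 and -0.28 and Ikzf4 between -0.25 and -0.18 on the log2 scale. The highest adjusted p was 4.63e-06 for Ikzf2 and 0.000506 for Ikzf4. These alternatives included leaving out each library in turn.

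**Figure D4:**
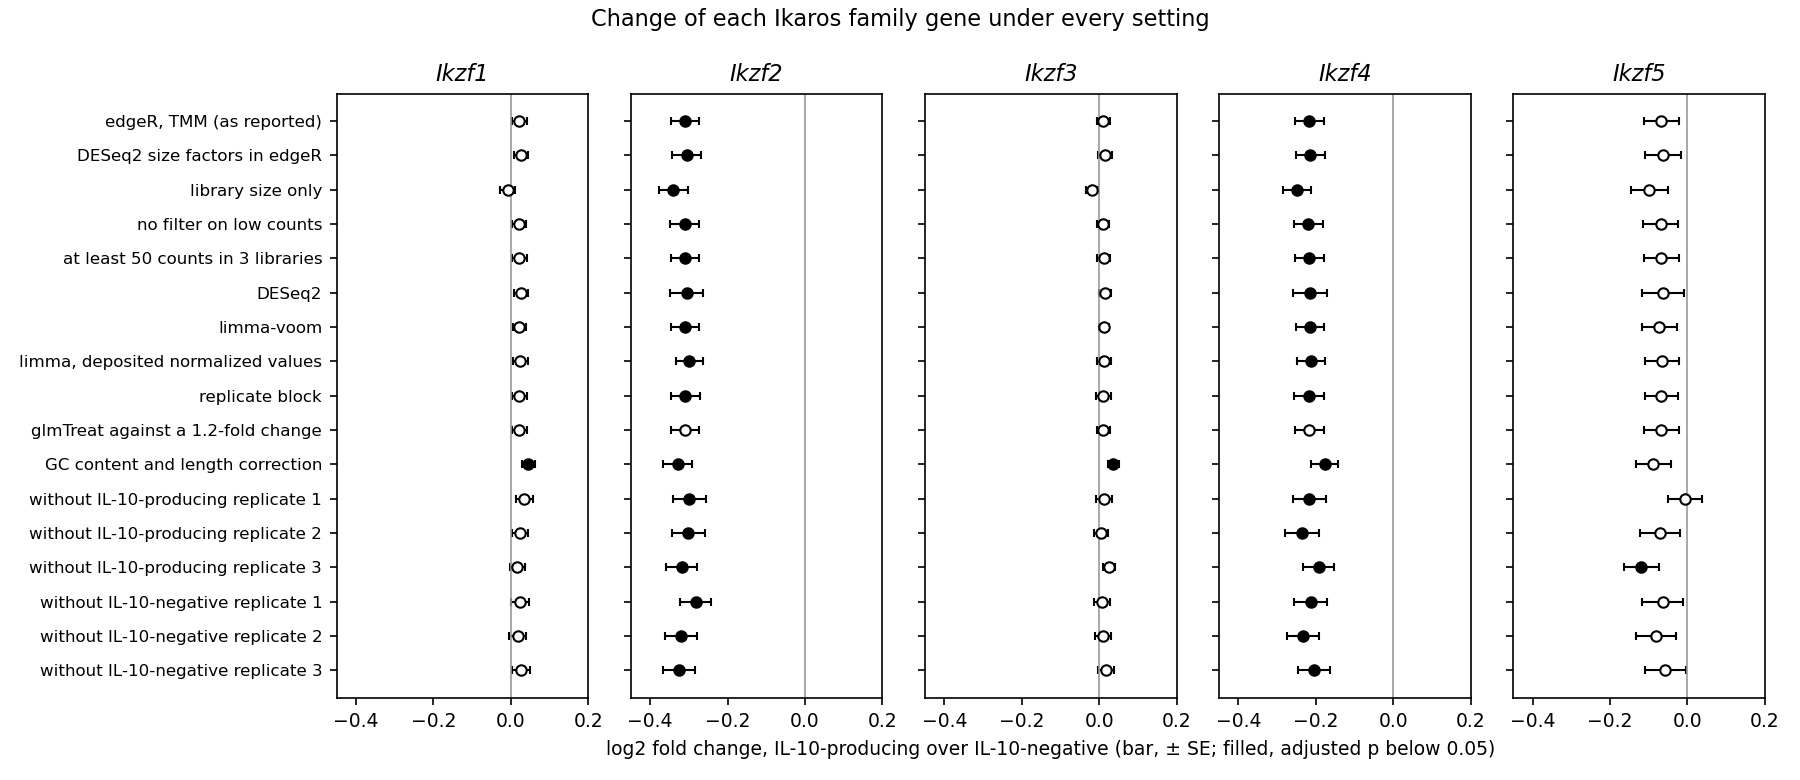
Log2 fold change ± SE (horizontal axis, IL-10-producing over IL-10-negative) of each Ikaros family gene under the reported analysis and 16 alternatives (rows), with filled points where the adjusted p was below 0.05. Ikzf2 and Ikzf4 lie left of zero in every row, Ikzf1 and Ikzf3 lie within 0.05 of it, and Ikzf5 moves with the IL-10-producing library left out.

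Genes with the most similar pattern were sought by the root mean square difference of centred log2 CPM over the 6 libraries, among 9449 named genes with a mean of at least 5 CPM. For Ikzf2 these were Fbxw5 (0.0105), an F-box protein gene, Mctp1 (0.0182) and Ogt (0.02), which encodes the O-GlcNAc transferase. For Ikzf4 they were Spen (0.0133), a transcriptional corepressor, Fbrs (0.0139) and Mapk8ip3 (0.0149). The median difference over all candidates was 0.167 for Ikzf2 and 0.128 for Ikzf4. For Ikzf3 the closest were Slc1a5 (0.00452), a glutamine transporter, Nfic (0.00487) and Zcchc6 (0.00498). For Ikzf1 they were Ddx23 (0.00625), Rc3h1 (0.00734), which encodes Roquin-1, and Zc3h18 (0.00935), and for Ikzf5 Zbtb39 (0.0181), Tmbim1 (0.0234) and Zfp60 (0.0257).

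The NuRD complex, the main corepressor partner of Ikaros, changed by small amounts. Of 15 genes tested 4 rose and 3 fell, where 17.1% of all genes rose and 18.6% fell, with a median log2 fold change of 0.025 beside -0.004 over all genes. The split depended on the scaling: 3 rose and 4 fell with library size only (median -0.006), and 7 rose and 2 fell with the GC and length correction (median 0.06). Chd4, the remodelling ATPase that Ikaros binds, stood at 568 ± 13.4 against 575 ± 10.0 CPM and did not pass, with a log2 fold change of -0.02 (edgeR adjusted p = 0.551). Its relative Chd3 fell by 0.09 on the log2 scale and the methyl-CpG binding subunit Mbd2 fell from 190 ± 1.78 to 167 ± 10.4 CPM. The histone-binding subunit Rbbp7 rose from 438 ± 8.07 to 500.3 ± 2.42 CPM and the deacetylase Hdac2 from 76.2 ± 1.16 to 84.5 ± 0.818 CPM.

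Among other corepressors and remodellers, 5 of 14 rose and 2 fell, beside 17.1% and 18.6% of all genes, with a median of 0.021. With library size only 5 rose and 3 fell (median -0.009), and with the GC and length correction the 7 that passed were all higher (median 0.061). The 4 genes with the smallest p all rose. They were the Polycomb methyltransferase Ezh2, from 170 ± 2.94 to 196 ± 4.73 CPM, its partner Suz12, from 201 ± 3.73 to 230 ± 10.8 CPM, a further Polycomb subunit, Eed, from 90.0 ± 3.61 to 104 ± 2.38 CPM, and Smarcc1, a scaffold of the SWI/SNF remodeller, by 0.16 on the log2 scale. All 4 also rose with library size only. Ctbp1, which Eos and Ikaros can bind, was at 207 ± 5.15 against 206 ± 2.54 CPM (adjusted p = 0.857).

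Genes linked to turnover and phosphorylation of Ikaros protein had 4 of 11 higher and 1 lower, beside 17.1% and 18.6% of all genes, with a median of 0.023. With library size only 4 were higher and 3 lower (median -0.008), and with the GC and length correction 4 were higher and 2 lower (median 0.032). The gene that fell in the reported analysis was Crbn, which encodes cereblon. In human cells, cereblon is the substrate receptor through which thalidomide analogues direct Ikaros and Aiolos to degradation. Crbn fell from 35.1 ± 1.71 to 30.9 ± 0.871 CPM, by 0.19 on the log2 scale (edgeR adjusted p = 0.00172). Its ligase partners Ddb1 and Cul4b rose by 0.09 and 0.16 on the log2 scale. Ppp1cb and Ppp1ca, catalytic subunits of protein phosphatase 1, which removes phosphates from Ikaros, rose by 0.17 and 0.09. The other 6 genes of the list, casein kinase 2 subunits among them, did not pass.

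Genes linked to Ikaros family factors in lymphocytes were mostly lower. Of 20 tested 3 rose and 12 fell, beside 17.1% and 18.6% of all genes, with a median of -0.27. Ptcra was below the filter, and Il2, Dntt and Igll1 had no row among the genes of the count table. Among those with the smallest p were the survival gene Bcl2, which fell from 126 ± 1.77 to 73.1 ± 0.875 CPM, Foxp3 and Tbx21, the lineage factor of type 1 lymphocytes (2.15 ± 0.188 to 0.0483 ± 0.0513 CPM). Ifng was at 0 counts in the IL-10-producing libraries and at 181 in the IL-10-negative ones, at least 62.5-fold lower against a floor of 3 counts over the group, and the list's median with Ifng at this bound was again -0.27. The 3 that rose, named after their values had been seen, were Prdm1, Cdk6 and Notch1, by 0.19, 0.21 and 0.05 on the log2 scale; with library size only 2 rose. Foxp3, Tbx21 and Gata3 of this list also stand in the marker lists of regulatory T cells, NK cells and ILC1, and ILC2s, respectively. Those lists had higher sums in the IL-10-producing libraries. For regulatory T cells they were 5931 to 6019 against 4298 to 4377 CPM. For NK cells and ILC1 they were 77.3 to 89.0 against 25.5 to 26.1 CPM, and for ILC2s 17181 to 17320 against 16348 to 16490 CPM. Summed T-cell markers were lower (126 to 129 against 212 to 219 CPM). The part of other cell types in the changes of this list was not tested.

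**Figure D5:**
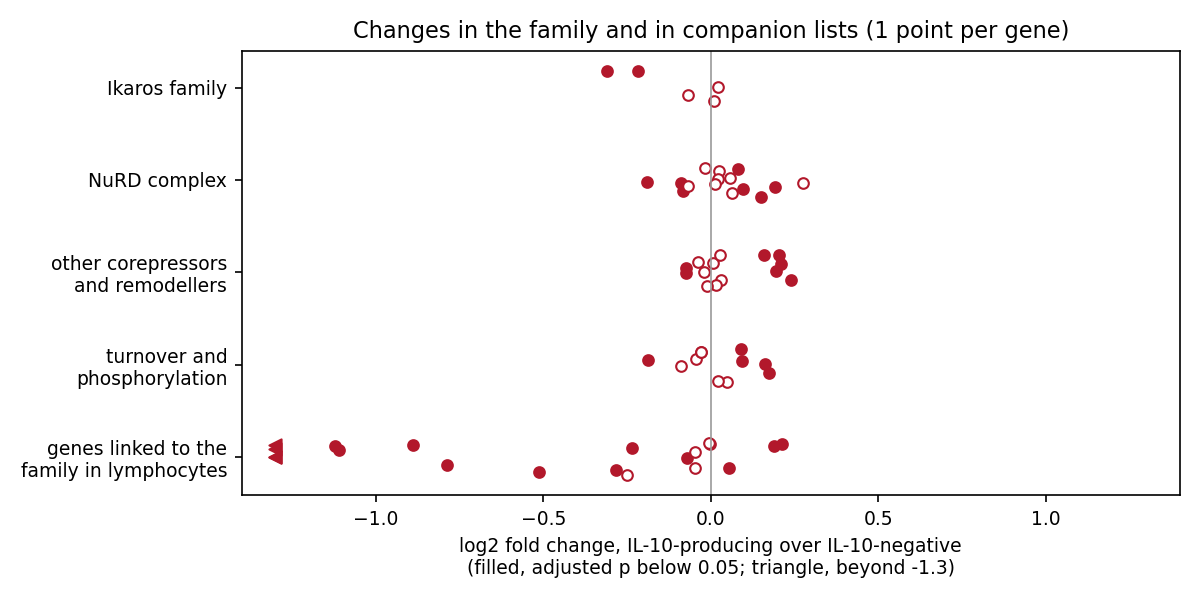
Log2 fold change (horizontal axis, IL-10-producing over IL-10-negative) of each tested gene (points, filled where the adjusted p was below 0.05) in the Ikaros family and 4 companion lists (rows), with triangles for genes beyond the axis limit on the left. The partner and turnover lists lie within 0.3 of zero, and the genes linked to the family in lymphocytes extend far to the left.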

How the data were processed

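The submitters' processing notes name build mm10 and the tools STAR 2.5.3a, Partek and bcl2fastq 2.17.1.14. The authors deposited estimated counts per gene, not scaled between libraries (50.4% were not whole). They also deposited a normalized signal table of 13824 genes, in which each value was the estimated count plus 1 times 1 factor per library (tolerance 1%). The sources used here give no annotation release, but all 19917 genes shared with GENCODE M21 by versioned identifier had the same positions, with 1 subtracted from the listed stop. Counts were rounded and tested with edgeR 4.0.16 in R 4.3.3 (quasi-likelihood F test, TMM, filterByExpr with minimum count 10, group as the only term), which kept 16654 genes and was tested on simulated data. Alternatives used DESeq2 1.42.0, limma 3.58.1 and other scalings, filters, a replicate block, a GC and length correction (16642 genes) and leaving out each library. Levels per kilobase with 2 other transcript lengths were added after seeing the data.

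The members and lists (4 pathway lists and 10 marker lists) were chosen with earlier results of these data known. By rule, the genes named were the members, Il10, the 4 genes with the smallest p per pathway list, Chd4, Ctbp1, Crbn, the 3 closest patterns per member and the highest markers; a gene that this rule names is not reported here. Outside the rule, Cd3e, Cd8a, Nrp1, Lrrc32, Ctla4, Ifng, Gata3, Pstk, Prdm1, Cdk6, Notch1 and the overlapping Gm29114 and Gm26876 were named after their values had been seen. Whether replicate numbers pair the samples is not said, and no pairing was used in the reported test. Deviations from the group means correlated at -0.0402 to -0.0177 between same-numbered libraries of the groups. Between differently numbered libraries the correlations were -0.00891 to 0.0266. These values cannot show whether same-numbered libraries share a culture or a sort. The members had 1911 to 66899 counts per library.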

Additional observations from a re-analysis of the deposited data

How the results depend on the processing

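Leaving aside the 1.2-fold test, the 5943 changed genes became 5254 to 6000 under 9 alternatives and 5232 to 5519 without single libraries, and 36.8% were higher with library size only against 47.8%. Under the 1.2-fold test 1317 genes passed, Ikzf2 (-0.31, adjusted p = 0.292) and Ikzf4 (-0.217, adjusted p = 1) did not, and 0, 0, 0 and 7 genes passed in the lists of NuRD, other corepressors, turnover and linked genes, because that test (edgeR's glmTreat) asks for a larger change; at an unadjusted p under 0.05 it passed 0, 0, 0 and 9, and the quasi-likelihood test had passed 7, 7, 5 and 15. With the replicate block the count was 5817, Ikzf2 was at -0.309 (edgeR adjusted p = 5.05e-07) and Ikzf4 at -0.218. No call on a member changed. Whether the shared numbers pair the samples is not said.

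With library size only, genes near zero turned sign, none past the threshold: Ikzf1 (-0.008), Ikzf3 (-0.019), Ctbp1 (-0.024), Ddx23 (-0.005), Rc3h1 (-0.016), Zc3h18 (-0.01), Slc1a5 (-0.025), Nfic (-0.015) and Zcchc6 (-0.017). After the GC and length correction Ikzf1 (0.045) and Ikzf3 (0.037) passed, and Chd4 (0.025) and Tmbim1 (0.002) turned sign; the cause was not tested. Without single libraries the ranges were -0.119 to -0.005 for Ikzf5, -0.012 to 0.02 for Ctbp1, -0.001 to 0.019 for Slc1a5, -0.09 to 0.014 for Zbtb39 and -0.095 to 0.002 for Tmbim1.

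Shares of the family level moved with the length: by protein-coding transcripts they were 21.1%, 1.44%, 72.3%, 2.44% and 2.71% for Ikzf1 to Ikzf5, and by the union of exons 34.7%, 2.11%, 55.5%, 3.84% and 3.86%.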
